A study of Mus musculus with 11 samples.

Results

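Loss of cereblon was examined in mouse T cells that had been stimulated for 12 hours through the antigen receptor and CD28. Of the 11 arrays in the series, 5 belong to this comparison: 3 of crbn-/- cells, called knockout below, and 2 of wild-type cells. They were selected by the genotype and activation state in their labels, and no measured value entered the selection. All groups came from C57BL6 female mice, 3 to 4 months old, whose splenic T cells were enriched by removing other cells with magnetic beads and kept in complete RPMI-10 medium. Stimulation used anti-CD3 bound to the plate at 5 µg/ml with anti-CD28 in solution at 1 µg/ml. The other 6 arrays hold naive cells, 3 of each genotype, which were collected without stimulation; they helped to estimate the spread and show the same genes in the unstimulated state. Replicates are labelled as biological, without saying how animals were assigned to them. The deleted part of Crbn and the C57BL6 substrain were not found in the labels.

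Cereblon is the substrate receptor of an E3 ubiquitin ligase built on CUL4 and DDB1. The ligase marks chosen proteins with ubiquitin for degradation, and cereblon is the protein that thalidomide, lenalidomide and pomalidomide bind. Stimulation through CD3 and CD28 starts interleukin-2 production, growth and entry into the cell cycle. The comparison asks which transcripts of stimulated T cells differ when the receptor subunit is missing.

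The arrays carried T cell transcripts at high levels. Cd3d, a chain of the antigen receptor complex, was 12.38 and 12.39 log2 in the wild-type arrays, against 12.13, 12.30 and 12.17 in the knockout arrays, while array medians lay between 5.84 and 5.89. Cd8a lay between 10.42 and 10.76 and Cd4 between 7.76 and 8.10. Wild-type replicate 1 stood apart from the other stimulated arrays. The median absolute difference over all genes was 0.123 to 0.148 log2 in the 4 pairs of arrays that include it, the other wild-type array being the farthest, and 0.0848 to 0.111 in the 6 pairs that do not. The difference of each gene tested below is therefore also given without this array, called WT1 in brackets. Leaving it out keeps 1 wild-type array, which the fit assumes to vary like the other groups.

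Few genes differed by genotype after stimulation. In limma, 11 of 18194 genes (0.0605%) had a Benjamini-Hochberg adjusted p below 0.05, of which 8 were higher (0.044%) and 3 lower (0.0165%) in knockout cells. At least 2-fold changes were those of Mid1, Tmem267, Cxcl3 and Npas2 among the higher genes (4 genes, 0.022%) and of Rab4a among the lower genes (1 gene, 0.0055%). An unadjusted p below 0.05 was reached by 1256 genes (6.9%). Knockout and wild-type arrays did not overlap for any of the 11 genes, but the same held for 3522 genes (19.4%). With 3 arrays against 2 the smallest one-sided p of an exact permutation test of 1 gene is 0.1, so the p-values rest on the fit over all 4 groups. Without wild-type replicate 1 the count was 1 (Cxcl3), without knockout replicate 2 it was 28 and without knockout replicate 3 it was 4. The sign of the 11 differences was the same in each of these fits.

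**Figure D1:**
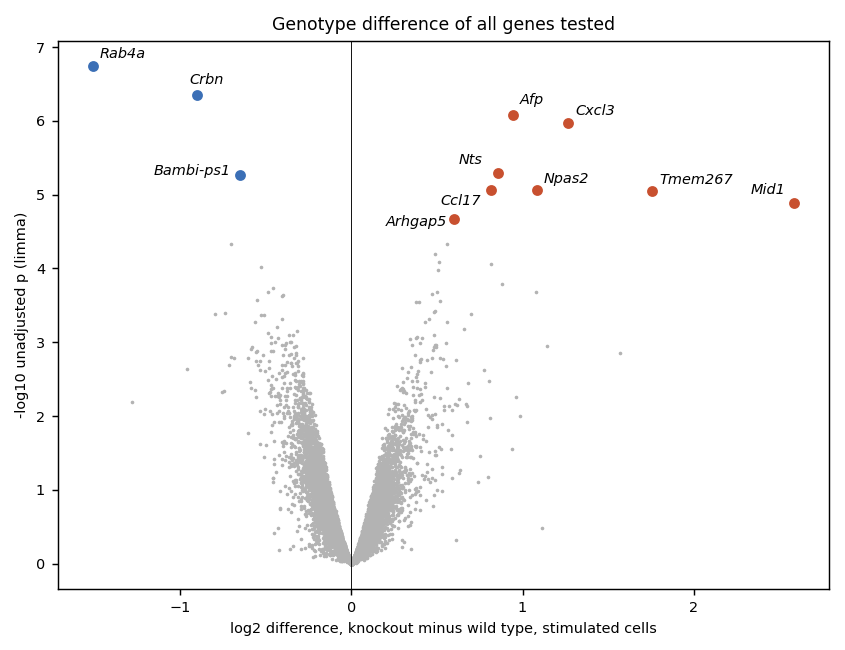
Difference between knockout and wild-type stimulated cells (horizontal axis, log2) against −log10 of the unadjusted limma p (vertical axis) for 18194 genes, 1 point per gene. The 11 genes past the adjusted threshold are named: 8 lie to the right of 0 (higher in knockout cells) and 3 to the left.

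Some of these genes also differed before stimulation. In naive cells 27 genes passed (0.148%), 14 higher (0.0769%) and 13 lower (0.0715%), with 2 (0.011%) and 4 (0.022%) of them changed at least 2-fold. Crbn, Rab4a and Mid1 passed in both states, which is 27.3% of the stimulated and 11.1% of the naive calls. Tmem267 and Arhgap5 had the same sign in naive cells with no overlap between arrays, but did not pass there. Afp, Cxcl3, Nts, Npas2, Ccl17 and Bambi-ps1 had naive differences between -0.08 and 0.07 log2. The interaction, which tests whether the genotype difference itself differs between the states, was passed by 0 genes in limma (0%), with 2515 (13.8%) at an unadjusted p below 0.05. A dependence on stimulation was therefore not shown for any single gene.

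**Figure D2:**
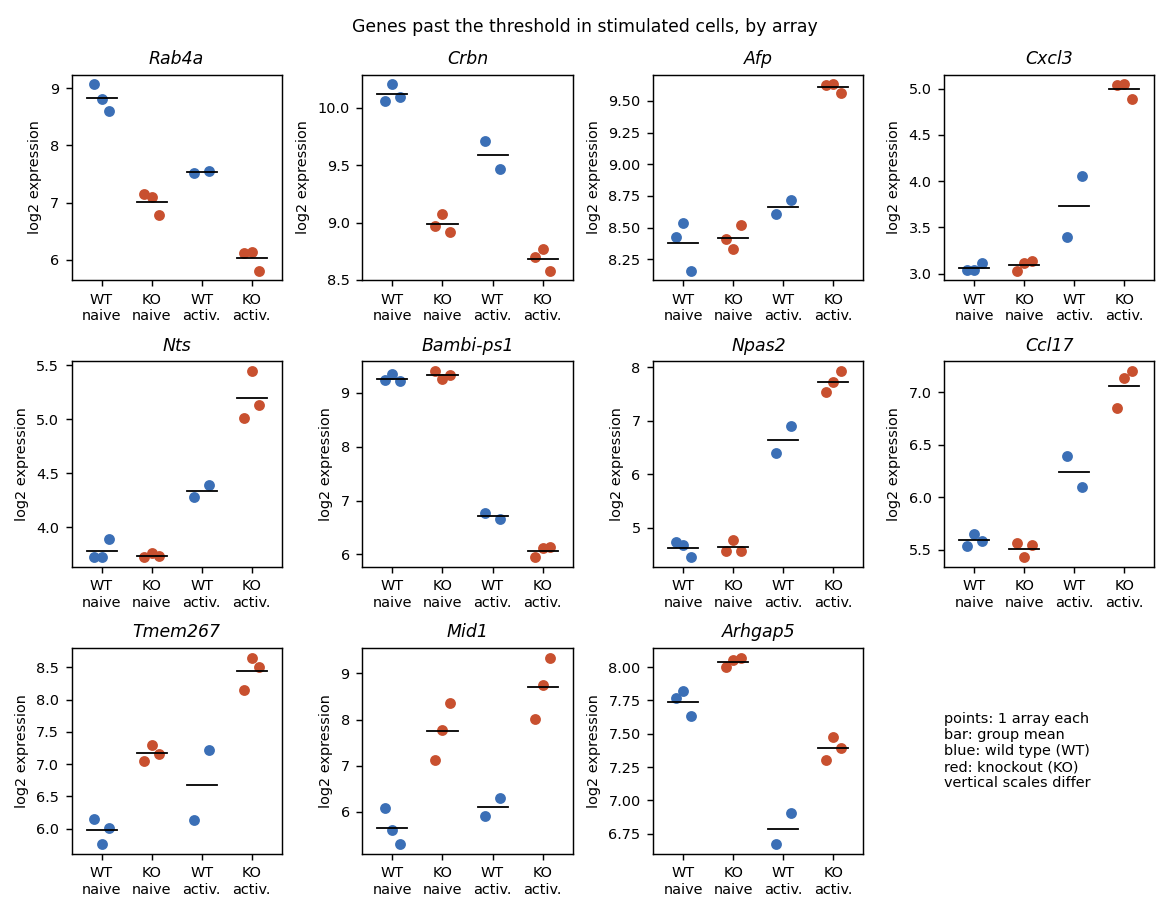
Level (log2, vertical axes on separate scales) of the 11 genes in each of the 11 arrays, by genotype and activation state (horizontal axes). Points are single arrays and bars are group means; the knockout and wild-type points of the stimulated cells do not overlap for any of the 11 genes.

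The targeted gene was lower in knockout cells. Crbn was 9.71 and 9.47 log2 in the wild-type arrays, against 8.70, 8.77 and 8.58 in the knockout arrays. Every knockout array lay at least 0.70 below both wild-type arrays. The difference was -0.90 (SE 0.09, limma adjusted p = 0.00405), which leaves 53.4% of the wild-type signal on probe set 1423095_s_at. Probe set 1423094_at left 53.3% and 1455734_at 68.0%. Without wild-type replicate 1 the difference was -0.78 (limma adjusted p = 0.0854, between 4.6e-04 and 0.0854 over its alternatives). Since the deleted part of the gene is unknown here, these probe sets may lie outside it, and the check of the labels is limited to the direction.

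Rab4a had the smallest p. It encodes a small GTPase of early endosomes that returns internalised receptors to the cell surface. Its level was 7.51 and 7.56 log2 in the wild-type arrays, against 6.13, 6.13 and 5.81 in the knockout arrays. The groups were 1.38 apart, while the wild-type arrays were 0.04 apart. The difference was -1.51 (SE 0.15, 2.85-fold, limma adjusted p = 0.00324). Its other probe set, 1418341_at, differed by -1.25 (limma adjusted p = 0.0595 over all probe sets). The naive difference was -1.82 (limma adjusted p = 8.7e-05) and the interaction 0.31 (SE 0.20, limma adjusted p = 0.485). The difference was -1.53 (limma adjusted p = 0.0854, between 1.1e-04 and 0.0854 over its alternatives) when wild-type replicate 1 was left out.

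Mid1 had the largest rise. It encodes a microtubule-binding ubiquitin ligase of the tripartite motif family. Its level was 5.92 and 6.31 log2 in the wild-type arrays, against 8.02, 8.75 and 9.34 in the knockout arrays. The knockout arrays were spread over 1.32 log2, and the lowest of them lay 1.71 above the higher wild-type array. The difference was 2.59 (SE 0.37, 6.02-fold, limma adjusted p = 0.0233) and in naive cells 2.09 (limma adjusted p = 0.0317). It rests on 1 probe set, since the other 2, with mean levels of 4.98 and 4.06, differed by 0.04 and 0.18. The mean of the 3 probe sets gave 0.93 (limma adjusted p = 0.112, between 0.0121 and 0.503 over its alternatives). Without wild-type replicate 1 the difference was 2.39 (limma adjusted p = 0.503).

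Tmem267, which encodes a predicted membrane protein, was 6.13 and 7.22 log2 in the wild-type arrays, against 8.15, 8.65 and 8.50 in the knockout arrays. The groups were 0.93 apart, less than the 1.09 between the wild-type arrays. It rose by 1.76 (SE 0.24, 3.39-fold, limma adjusted p = 0.018), and by 1.22 (limma adjusted p = 0.14, between 0.00182 and 0.2 over its alternatives) without wild-type replicate 1. In naive cells the difference was 1.20 (limma adjusted p = 0.0626). The arrays of Arhgap5, given here and below with the wild-type replicates before the knockout replicates, read 6.67 and 6.91 against 7.30, 7.47 and 7.39 log2. It rose by 0.60 (SE 0.09, 1.52-fold, limma adjusted p = 0.0353). The other probe sets differed by 0.36, 0.01 and 0.40, and the mean of the 4 by 0.34 (limma adjusted p = 0.4). It was the least stable of the 11 genes, passing in 8 of 20 alternatives, and its difference without wild-type replicate 1 was 0.48 (limma adjusted p = 0.503, between 0.0247 and 0.503 over its alternatives). Its naive difference was 0.30 (limma adjusted p = 0.168).

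The sequence before the start of transcription is printed for Cxcl3, Nts, Ccl17 and Npas2, which rose in stimulated knockout cells and had small naive differences. Each is the 250 bases before the start in RefSeq (GRCm38.p6), 5′ to 3′ on the strand of the gene: chr5:90785851-90786100 on the plus strand for Cxcl3, chr10:102490419-102490668 on the minus strand for Nts, chr8:94810203-94810452 on the plus strand for Ccl17 and chr1:39194022-39194271 on the plus strand for Npas2. Capitals mark matches, on either strand, to CACGTG (the E-box of MYC and clock factors), TGANTCA (AP-1), TGACGTCA (CREB) or the NF-kappaB core, searched as GGGA, any 4 bases and CC.
Cxcl3: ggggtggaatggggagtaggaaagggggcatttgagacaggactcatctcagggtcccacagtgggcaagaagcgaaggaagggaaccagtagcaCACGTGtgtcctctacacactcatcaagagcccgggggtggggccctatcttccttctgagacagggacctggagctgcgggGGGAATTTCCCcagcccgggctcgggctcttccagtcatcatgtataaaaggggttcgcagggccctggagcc
Nts: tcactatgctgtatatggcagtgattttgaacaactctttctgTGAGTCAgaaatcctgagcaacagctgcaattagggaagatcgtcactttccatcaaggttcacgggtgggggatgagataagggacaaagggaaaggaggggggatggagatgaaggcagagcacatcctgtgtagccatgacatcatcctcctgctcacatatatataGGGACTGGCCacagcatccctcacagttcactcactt
Ccl17: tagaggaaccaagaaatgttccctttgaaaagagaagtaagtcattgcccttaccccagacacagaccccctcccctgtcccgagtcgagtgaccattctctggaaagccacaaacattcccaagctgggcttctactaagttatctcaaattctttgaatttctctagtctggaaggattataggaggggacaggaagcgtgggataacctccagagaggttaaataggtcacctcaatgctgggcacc
Npas2: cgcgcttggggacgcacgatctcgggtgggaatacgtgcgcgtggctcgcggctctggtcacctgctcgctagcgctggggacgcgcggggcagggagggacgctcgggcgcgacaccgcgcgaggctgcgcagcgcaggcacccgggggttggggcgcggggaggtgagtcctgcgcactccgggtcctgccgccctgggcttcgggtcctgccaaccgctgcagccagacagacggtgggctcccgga

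Cxcl3 held CACGTG with its first base at -155 from the start and the NF-kappaB core at -73 and -72, as overlapping matches. Nts held TGANTCA at -207 and the NF-kappaB core at -37. Ccl17 and Npas2 held none of these letters in this window. Of the 8 genes that rose, 1 held CACGTG, 1 TGANTCA, 0 TGACGTCA and 2 the NF-kappaB core. Over 14453 tested genes with a promoter in the table the shares were 8.73%, 6.7%, 2.5% and 24.6%. No single motif of the 4 was shared by the genes that rose, and a match shows only that the letters are present.

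Cxcl3 and Ccl17 were the chemokines that rose. Cxcl3 attracts neutrophils through CXCR2. Its level was 3.39 and 4.06 log2 in the wild-type arrays, against 5.04, 5.05 and 4.88 in the knockout arrays, and 3.03 to 3.14 in the 6 naive arrays. The wild-type arrays differed from each other by 0.66, and every knockout array was above both. The rise was 1.27 (SE 0.14, 2.40-fold, limma adjusted p = 0.0048), and the interaction was 1.24 (limma adjusted p = 0.122). Both wild-type values are under 4.57, which was the smallest first quartile among the arrays, so expression in wild-type cells may not exceed background and the fold is uncertain. The rise was 0.93 (limma adjusted p = 0.0228, between 1.2e-04 and 0.125 over its alternatives) when wild-type replicate 1 was left out.

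Ccl17 encodes a ligand of CCR4, a receptor of helper and regulatory T cells. Its level was 6.39 and 6.10 log2 in the wild-type arrays, against 6.85, 7.14 and 7.20 in the knockout arrays, with a gap of 0.46 between the groups, and 5.43 to 5.65 in naive arrays. It rose by 0.82 (SE 0.11, 1.76-fold, limma adjusted p = 0.018), with an interaction of 0.90 (limma adjusted p = 0.124), and by 0.96 (limma adjusted p = 0.0854, between 0.00839 and 0.234 over its alternatives) without wild-type replicate 1. Ccl22, the other ligand of CCR4, lies 2 measured genes from Ccl17 on chromosome 8. It read 8.64 and 9.32 against 9.55, 9.77 and 9.73, a difference of 0.70 that did not pass (SE 0.15, limma adjusted p = 0.209, 0.36 without WT1). Cxcl2, 3 measured genes from Cxcl3 on chromosome 5, read 4.03 and 4.02 against 4.58, 4.61 and 4.53, a difference of 0.55 that did not pass either (SE 0.13, limma adjusted p = 0.292, 0.56 without WT1) and that also starts from wild-type values under 4.57. Both neighbours are named after their values were seen, and the arrays of each did not overlap between the groups.

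Npas2 encodes a circadian transcription factor that pairs with BMAL1 in place of CLOCK. Its level was 6.40 and 6.90 log2 in the wild-type arrays, against 7.54, 7.72 and 7.93 in the knockout arrays, and 4.45 to 4.79 in naive arrays. It rose by 1.08 (SE 0.15, 2.12-fold, limma adjusted p = 0.018), with an interaction of 1.06 (limma adjusted p = 0.172). The rise rests on 1 of 2 probe sets, since the other differed by 0.01. It was 0.84 (limma adjusted p = 0.407, between 0.00702 and 0.407 over its alternatives) in the fit without wild-type replicate 1. Afp encodes alpha-fetoprotein, a serum protein of the fetal liver. Its level was 8.61 and 8.72 log2 in the wild-type arrays, against 9.62, 9.63 and 9.56 in the knockout arrays, with little spread within either group. It rose by 0.94 (SE 0.10, 1.92-fold, limma adjusted p = 0.0048), against a naive difference of 0.04 and an interaction of 0.90 (limma adjusted p = 0.122). Its 3 brightest probe sets differed by 0.94, 0.78 and 0.88 and its 2 dimmest by 0.09 and 0.00. The rise was 0.89 (limma adjusted p = 0.107, between 7.9e-04 and 0.107 over its alternatives) when wild-type replicate 1 was left out.

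Nts encodes the neuropeptide neurotensin. Its level was 4.28 and 4.40 log2 in the wild-type arrays, against 5.01, 5.45 and 5.13 in the knockout arrays. It rose by 0.86 (SE 0.11, 1.81-fold, limma adjusted p = 0.0163), with an interaction of 0.91 (limma adjusted p = 0.124), and by 0.80 (limma adjusted p = 0.343, between 0.0055 and 0.343 over its alternatives) without wild-type replicate 1. As for Cxcl3, the wild-type values lie under 4.57, which leaves the fold uncertain. Bambi-ps1, a pseudogene, was the remaining gene that fell. Its level was 6.77 and 6.66 log2 in the wild-type arrays, against 5.94, 6.12 and 6.13 in the knockout arrays, and 9.22 to 9.41 in naive arrays. The difference was -0.65 (SE 0.09, 1.57-fold, limma adjusted p = 0.0163), with an interaction of -0.72 (limma adjusted p = 0.122), and -0.60 (limma adjusted p = 0.276, between 0.00839 and 0.276 over its alternatives) without wild-type replicate 1. A probe set for a pseudogene can bind near-identical transcripts, so the source of this signal is uncertain.

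**Figure D3:**
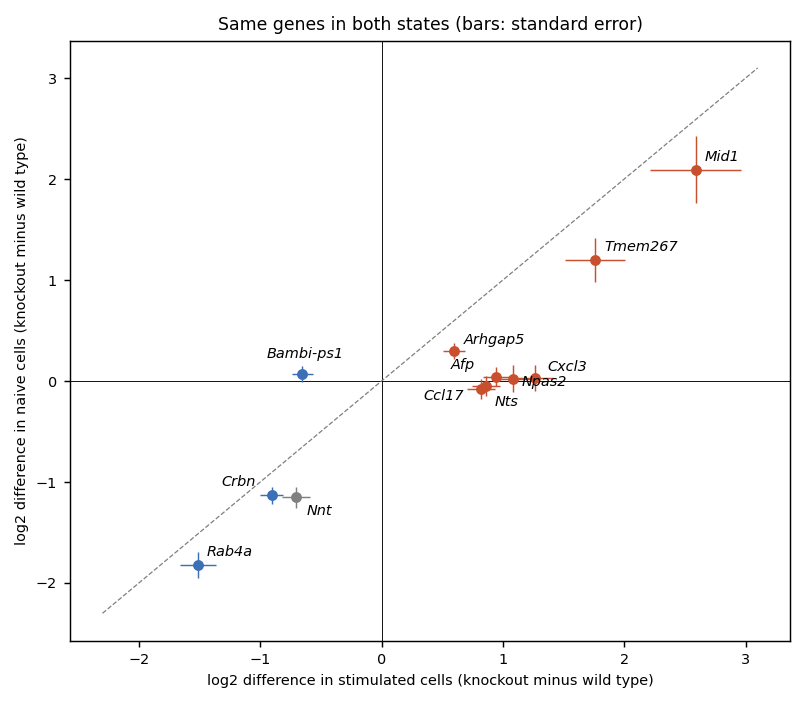
Genotype difference in stimulated cells (horizontal axis, log2) against that in naive cells (vertical axis, log2) for the 11 genes and Nnt, with bars of 1 standard error from limma and a dashed line at equal differences. Afp, Cxcl3, Nts, Npas2, Ccl17 and Bambi-ps1 lie between -0.08 and 0.07 on the vertical axis, whereas Mid1 is at 2.09 and Rab4a at -1.82.

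Nnt, Calcrl, Lonrf3, Slc9a7 and Dmxl2 lay just outside the threshold, with adjusted p-values under 0.1. Nnt encodes the mitochondrial transhydrogenase that makes NADPH, a gene that is deleted in part in some C57BL6 substrains. Its level was 8.98 and 8.71 log2 in the wild-type arrays, against 8.27, 8.18 and 7.97 in the knockout arrays. The difference of -0.70 did not pass (SE 0.12, limma adjusted p = 0.0653, -0.57 without WT1), whereas the naive difference of -1.15 did (limma adjusted p = 2.9e-04). Its second bright probe set, 1416105_at, passed in stimulated cells when all probe sets were tested, at -0.76 (limma adjusted p = 0.0189). Calcrl, which encodes the receptor of adrenomedullin, differed by 0.56 (limma adjusted p = 0.0653, 0.51 without WT1). That value rests on its brightest probe set, since the others, with mean levels of 5.01 and 3.86, differed by -0.12 and -0.04. Lonrf3 differed by 0.49 (limma adjusted p = 0.0819, 0.59 without WT1), Slc9a7 by 0.51 (limma adjusted p = 0.0989, 0.53 without WT1) and Dmxl2 by 0.82 (limma adjusted p = 0.0989, 0.73 without WT1), from wild-type values under the quartile described for Cxcl3. In Calcrl, Lonrf3, Slc9a7 and Dmxl2 every knockout array lay above both wild-type arrays, and the naive differences were between 0.01 and 0.09.

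Measured genes within 5 places of the 11 genes on the chromosome were also read. Of these 104 genes 0 passed in stimulated cells in limma, and 32 had no overlap between arrays, against 19.4% of all genes. The neighbours of Crbn on chromosome 6 lay between -0.18 and 0.28 log2, and those of Rab4a on chromosome 8 between -0.13 and 0.16. A list of 13 chromosome 6 genes around Crbn had a median of -0.08, with 0 past the threshold and Grm7 at -0.20 (limma adjusted p = 0.683, -0.11 without WT1). Nnt lies 4 measured genes from Tmem267 on chromosome 13 and had the opposite sign. 3110070M22Rik, next to Tmem267, read 4.52 and 4.79 against 5.20, 5.47 and 5.11, a difference of 0.61 (SE 0.15, limma adjusted p = 0.313, 0.48 without WT1). Erdr1, 3 measured genes from Mid1 on the X chromosome, read 10.55 and 10.46 against 11.26, 12.59 and 12.37. Its difference of 1.57 did not pass (SE 0.38, limma adjusted p = 0.311, 1.61 without WT1), and in naive cells it was 1.65 (limma adjusted p = 0.0921). These values rest on 1 probe set, since 1447790_at, with a mean level of 6.16, differed by 0.21 in stimulated and 0.41 in naive cells. Erdr1 and 3110070M22Rik are named after their values were seen. Whether the 2 genotypes differ in strain background at these places was not tested.

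Products of effector T cells did not pass. Of 26 measured cytokine and chemokine genes, a list without Cxcl3 and Ccl17, 0 passed in limma, and the median difference was 0.18 against -0.02 over all genes. Of them 19 lay above 0, against 43.6% of all genes. In 4 the knockout arrays all lay above the wild-type arrays and in 4 all below, against 7.37% and 12% of all genes. Without wild-type replicate 1 the median was 0.06. Il6 had the smallest p and read 3.69 and 4.90 against 5.75, 5.05 and 4.96, a difference of 0.96 (SE 0.29, limma adjusted p = 0.442, 0.36 without WT1). Il2, Ifng, Tnf and Myc, which stimulation is known to induce, are named after their values were seen. Il2 read 10.37 and 11.09 against 11.24, 10.70 and 11.46, so the groups overlapped, with a difference of 0.40 (SE 0.22, limma adjusted p = 0.781, 0.04 without WT1). Ifng differed by 0.29 (SE 0.19, limma adjusted p = 0.828, 0.10 without WT1), Tnf by -0.19 (SE 0.16, limma adjusted p = 0.878, -0.33 without WT1) and Myc by 0.14 (SE 0.11, limma adjusted p = 0.878, 0.06 without WT1). Of 14 granule and death ligand genes 0 passed (median 0.07), with Gzmc at 0.52 (limma adjusted p = 0.653, 0.22 without WT1).

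Listed receptor genes did not pass either by their brightest probe set. Of 30 activation genes 0 passed (median 0.03, -0.01 without WT1). In 6 of the 30 every knockout array was higher and in 0 lower, against 7.37% and 12% of all genes. Cd44, an adhesion receptor of activated cells, read 11.01 and 11.34 against 11.63, 11.57 and 11.47, a difference of 0.38 (SE 0.11, limma adjusted p = 0.396, 0.22 without WT1). Among 16 costimulatory genes (median -0.06) Cd86, a ligand of CD28, differed by 0.49 (SE 0.12, limma adjusted p = 0.292, 0.26 without WT1). It passed without wild-type replicate 2, at 0.73 (limma adjusted p = 0.031, between 0.031 and 0.751 over its alternatives). Of 13 inhibitory receptor genes 0 passed (median -0.12). Ctla4, which competes with CD28 for its ligands, read 8.91 and 8.86 against 8.47, 8.46 and 8.33, a difference of -0.46 (SE 0.13, limma adjusted p = 0.37, -0.44 without WT1). Of 20 cytokine receptor and feedback genes 0 passed (median 0.02), with Ifngr1 at -0.40 (limma adjusted p = 0.514, -0.16 without WT1).

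Genes of resting and migrating cells held several lower values that did not pass. S1pr1 guides T cells out of lymphoid organs and read 7.41 and 7.06 against 6.16, 6.81 and 6.53. Every knockout array lay below both wild-type arrays, and the difference was -0.74 (SE 0.15, limma adjusted p = 0.209, -0.56 without WT1). It passed without knockout replicate 2, at -0.89 (limma adjusted p = 0.0337, between 0.0337 and 0.7 over its alternatives). The 24 genes of the naive state had a median of -0.05 and 0 passed. In the migration list 7 of 19 genes were lower and 2 higher in every knockout array, against 12% and 7.37% of all genes, and 0 passed (median -0.07). Selplg, a ligand of selectins, differed by -0.39 (SE 0.10, limma adjusted p = 0.322, -0.37 without WT1), with no overlap between the groups.

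Of 19 antigen receptor and proximal signalling genes 0 passed (median -0.09), and Plcg1, the phospholipase that starts the calcium signal, differed by -0.27 (SE 0.10, limma adjusted p = 0.579, -0.28 without WT1). Of 26 negative regulators 0 passed (median -0.08). Dgka, a kinase that removes diacylglycerol, read 10.80 and 10.40 against 9.75, 10.21 and 10.10, a difference of -0.58 (SE 0.14, limma adjusted p = 0.292, -0.38 without WT1). The 23 calcium and ion channel genes had a median of -0.01, with Nfatc2 at 0.24 (limma adjusted p = 0.579, 0.22 without WT1). Kcna3, the voltage-gated potassium channel of T cells, named after its values were seen, differed by 0.02 (SE 0.15, limma adjusted p = 0.989, -0.11 without WT1). The 15 NF-kappaB genes had a median of 0.05, with Nfkbie at 0.33 (limma adjusted p = 0.672, 0.05 without WT1), and 0 genes of either list passed.

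Cereblon's ligase partners and reported substrates were read as a list of 31 genes, which leaves out Crbn itself. Of them 0 passed, the median was 0.02, and 7 were higher and 4 lower in every knockout array, against 7.37% and 12% of all genes. Prkaa1, a catalytic subunit of AMP-activated kinase, had the smallest p among 29 AMPK, mTOR and PI3K genes, of which 0 passed (median -0.02). It read 6.08 and 6.25 against 6.76, 6.56 and 6.64, a difference of 0.49 (SE 0.12, limma adjusted p = 0.292, 0.40 without WT1). In naive cells its difference was -0.32, with an interaction of 0.81 (limma adjusted p = 0.172). The genes of proteins that drug-bound cereblon degrades are named after their values were seen. Ikzf1 (Ikaros) differed by -0.12 (SE 0.09, limma adjusted p = 0.855, -0.10 without WT1), Ikzf3 (Aiolos) by 0.00 (SE 0.08, limma adjusted p = 0.998, 0.02 without WT1), Gspt1 by 0.02 (SE 0.08, limma adjusted p = 0.984, -0.07 without WT1) and Csnk1a1 by -0.04 (SE 0.07, limma adjusted p = 0.948, -0.06 without WT1). The dimmer probe sets of Gspt1 differed by 0.00 to 0.42, and none of them passed when all probe sets were tested. These are transcript levels, and the proteins were not measured.

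Many list medians turned sign with 1 array. Of 33 functional lists, holding 690 different measured genes, 0 held a gene that passed, and their medians ranged from -0.20 (mitosis) to 0.18 (cytokines and chemokines). The genes that passed, among them Crbn, Cxcl3, Ccl17 and the circadian gene Npas2, are not in these lists. The 0 therefore follows from which genes were listed. In ribosome biogenesis 30 of 32 genes lay above 0, with a median of 0.08. Without wild-type replicate 1 these were 9 of 32 and -0.05. Nucleotide synthesis went from 19 to 10 of 20 above 0, and mitochondrial import and biogenesis from 21 to 10 of 23. Glycolysis, respiratory chain, MYC network and mitosis medians were below 0 with and without that array. When another stimulated array was left out, the first 3 reached up to 0.05, 0.04 and 0.05, while mitosis stayed below 0. The median turned sign in 14 of the 33 lists without wild-type replicate 1, and 6 medians instead of 18 were above 0.

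**Figure D4:**
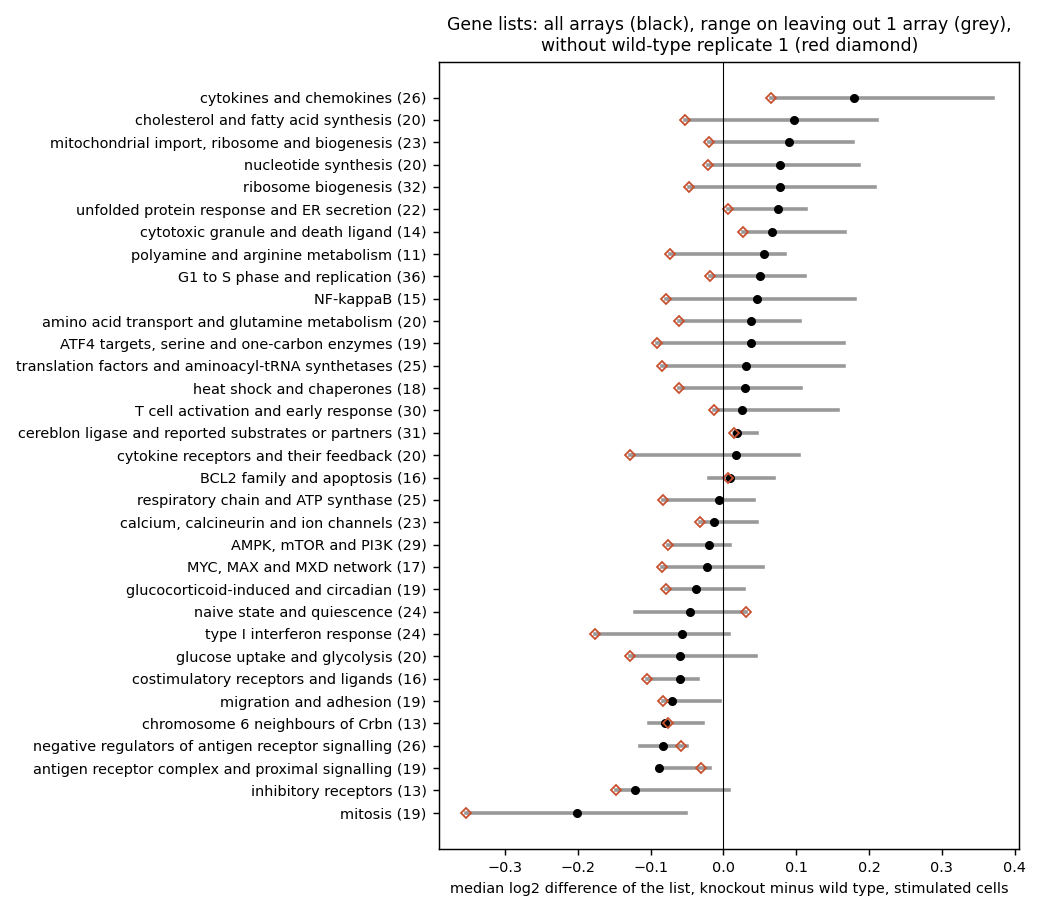
Median log2 difference (horizontal axis, knockout minus wild type in stimulated cells) of 33 functional gene lists, with all arrays (black), over the fits that leave out 1 stimulated array (grey lines) and without wild-type replicate 1 (red). The ribosome biogenesis median goes from 0.08 to -0.05 and the mitosis median from -0.20 to -0.35.

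Single genes of these lists had small differences, and 0 passed. Of 20 glycolysis genes (median -0.06) Hk2, a hexokinase, differed by 0.30 (limma adjusted p = 0.848, 0.04 without WT1). Of 25 respiratory chain genes (median -0.01) Sdhc differed by 0.22 (limma adjusted p = 0.732, 0.17 without WT1), and of 20 amino acid transport genes (median 0.04) Slc1a4 by -0.15 (limma adjusted p = 0.855, -0.24 without WT1). Sat1, the acetyltransferase that starts polyamine breakdown, differed by -0.31 (limma adjusted p = 0.481, -0.26 without WT1) in a list with a median of 0.06. The ATF4 list had a median of 0.04, with Ddit3 at -0.15 (limma adjusted p = 0.816, -0.22 without WT1), and sterol and fatty acid synthesis 0.10, with Insig1 at 0.23 (limma adjusted p = 0.609, 0.12 without WT1). Mxd1, which opposes MYC, read 8.45 and 8.43 against 7.96, 8.22 and 7.76, a difference of -0.46 (SE 0.13, limma adjusted p = 0.418, -0.45 without WT1), in a list with a median of -0.02. Translation genes had a median of 0.03, with Eif1a at 0.17 (limma adjusted p = 0.84, 0.18 without WT1). Polr1b, of RNA polymerase I, differed by 0.19 (limma adjusted p = 0.748, 0.08 without WT1) and Tyms, of thymidylate synthesis, by 0.23 (limma adjusted p = 0.748, 0.33 without WT1).

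Of the cell cycle, stress and survival genes 0 passed. In the mitosis list 1 of 19 genes lay above 0 (median -0.20) and 4 were lower in every knockout array, against 12% of all genes. The median was -0.35 without WT1, -0.05 without knockout replicate 3 (7 of 19 above 0) and -0.10 without wild-type replicate 2. In naive cells the median of this list was -0.736. Kif11, a spindle motor, read 6.26 and 6.46 against 5.88, 6.02 and 5.82, a difference of -0.45 (SE 0.20, limma adjusted p = 0.701, -0.55 without WT1). The G1 to S phase list had a median of 0.05, with Cdkn2d at -0.38 (limma adjusted p = 0.313, -0.45 without WT1). Of 22 unfolded protein response genes (median 0.07) 7 were higher and 0 lower in every knockout array, against 7.37% and 12% of all genes, with Manf at 0.19 (limma adjusted p = 0.748, 0.08 without WT1). Without WT1 that list had 11 of 22 above 0 and a median of 0.01. The heat shock gene Hspa1a read 4.42 and 4.71 against 5.01, 5.22 and 4.84, a difference of 0.46 (SE 0.15, limma adjusted p = 0.516, 0.31 without WT1), in a list with a median of 0.03. Ddx58, an RNA sensor of the interferon list (median -0.06), read 8.30 and 8.39 against 7.64, 8.04 and 7.95, a difference of -0.47 (SE 0.11, limma adjusted p = 0.304, -0.52 without WT1). Pmaip1 of the BCL2 family list (median 0.01) differed by 0.53 (limma adjusted p = 0.552, 0.15 without WT1), and Nfil3 of the glucocorticoid and circadian list (median -0.04) by 0.39 (limma adjusted p = 0.441, 0.24 without WT1). The latter list does not hold Npas2.

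Markers of other cells were read beside these results, because in bulk samples fewer cells of a type and less RNA per cell cannot be told apart. The summed linear signal of 15 B cell markers was 6500 to 9107 in wild-type and 9435 to 11690 in knockout arrays. Of them 12 lay above 0 (median 0.49), against 43.6% of all genes, and 0 passed. In every knockout array 4 were higher and 0 lower, against 7.37% and 12% of all genes. Pax5 (-0.20), Ebf1 (-0.19) and Cr2 (-0.14) lay below 0, and Ebf1 was under 4.57 in all 5 arrays. Ighm, the IgM heavy chain gene, read 11.75 and 12.11 against 12.26, 12.38 and 12.16, a difference of 0.34 (SE 0.11, limma adjusted p = 0.505, 0.16 without WT1). Its other probe sets disagreed in sign, from -0.61 to 0.49, and none passed when all probe sets were tested. Ms4a1 (CD20) read 7.25 and 8.35 against 9.24, 8.18 and 8.39, with wild-type replicate 1 lowest, and without that array the list's median was 0.16. In naive cells the median of the B cell list was 0.415. The 7 NK cell markers summed to 1618 to 1864 in wild-type and 1628 to 2231 in knockout arrays (median 0.31), with Tyrobp at 0.56 (limma adjusted p = 0.579, 0.32 without WT1). Most of that sum is Eomes, at 10.27 and 10.52 log2 in wild-type and 10.22 to 10.79 in knockout arrays. In 4 of the 7 every knockout array was higher and in 0 lower, against 7.37% and 12% of all genes. The median of the NK cell list was 0.31 without WT1 too, and 0.349 in naive cells. The 9 dendritic cell markers summed to 959.7 to 1189 in wild-type and 1407 to 1521 in knockout arrays and include Ccl17 and Ccl22. The other 7 differed by -0.06 to 0.47, Batf3 being highest, with Flt3 at -0.01 and Siglech at -0.02. The median of the list was -0.01 with 4 of 9 above 0, and 0.10 with 9 of 9 without WT1. The part of these cells in the rises of Ccl17 and Cxcl3 was not tested.

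In the remaining marker lists 0 genes passed. The 16 macrophage and monocyte markers summed to 2769 to 2909 in wild-type and 2662 to 2733 in knockout arrays (median -0.08), with Cd14 at -0.18 (limma adjusted p = 0.702, -0.10 without WT1) and with Mrc1 and Spic under 4.57 in all 5 arrays. The 10 neutrophil markers summed to 430.3 to 448.5 in wild-type and 401.4 to 529.4 in knockout arrays (median 0.00), with Csf3r at -0.11 (limma adjusted p = 0.858, -0.02 without WT1). Erythroid, platelet and plasma cell markers had medians of -0.14, -0.08 and 0.05, with Alas2 at -0.21 (limma adjusted p = 0.944, -0.14 without WT1), Itgb3 at -0.51 (limma adjusted p = 0.505, -0.44 without WT1) and Jchain at 0.55 (limma adjusted p = 0.33, 0.33 without WT1). T cell markers summed to 20150 to 20720 in wild-type and 18280 to 20020 in knockout arrays (median -0.11), with Cd5 at -0.26 (limma adjusted p = 0.579, -0.36 without WT1). The knockout sums thus lay below the wild-type sums, as did those of the macrophage and platelet markers. Platelet markers summed to 871.0 to 947.7 in wild-type and 792.5 to 845.1 in knockout arrays. CD4 and CD8 T cell markers had medians of -0.07 and 0.06, with Zbtb7b at -0.15 (limma adjusted p = 0.871, -0.01 without WT1) and Runx3 at 0.18 (limma adjusted p = 0.867, -0.05 without WT1). Of 7 regulatory T cell genes 0 passed by their brightest probe set (median -0.05). Gpr83, a receptor gene of these cells, read 8.40 and 8.27 against 7.71, 7.94 and 7.89, a difference of -0.49 (SE 0.10, limma adjusted p = 0.166, -0.42 without WT1), and its naive difference was -0.46 (limma adjusted p = 0.0626). Its second probe set, 1439569_at, passed when all probe sets were tested, at -0.64 in stimulated (limma adjusted p = 0.037) and -0.63 in naive cells (limma adjusted p = 0.0132).

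The dependence of the 11 calls on single arrays was read by leaving out each stimulated array in turn. Cxcl3 passed in all 5 of these fits, Rab4a, Crbn and Afp in 4, Npas2 and Tmem267 in 3, Nts and Ccl17 in 2 and Bambi-ps1, Mid1 and Arhgap5 in 1. The sizes moved less than the calls. Rab4a ranged from -1.57 to -1.41 log2, Afp from 0.89 to 1.00, Mid1 from 2.27 to 2.93 and Tmem267 from 1.22 to 2.31. With the 5 stimulated arrays alone in the fit, Rab4a (limma adjusted p = 0.00836) and Afp (limma adjusted p = 0.02) passed.

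**Figure D5:**
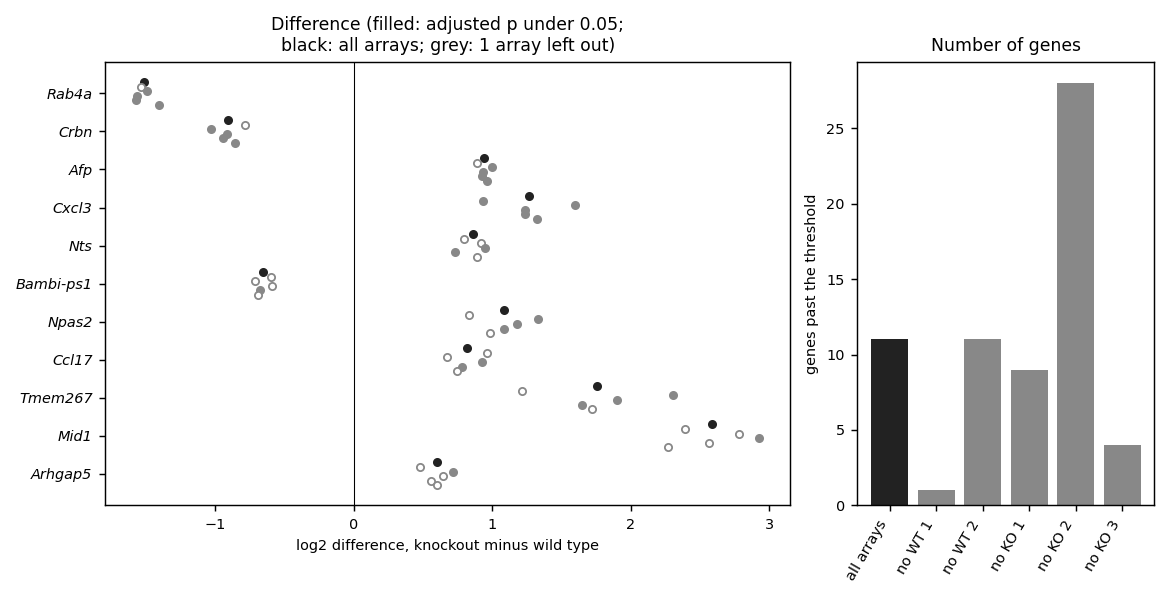
Left, log2 difference (horizontal axis, knockout minus wild type in stimulated cells) of the 11 genes with all arrays (black) and with each stimulated array left out in turn (grey); filled points have an adjusted p below 0.05 in limma. Right, number of genes past the threshold in the same fits (vertical axis, from 0), between 1 without wild-type replicate 1 and 28 without knockout replicate 2.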

How the data were processed

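Biotin-labelled RNA of 11 samples was read on Affymetrix mouse arrays of 1 colour. The authors deposited log2 values per probe set, made with GCOS, RMA and Partek per the submitters' processing notes; versions and options are not stated there. RMA brings the arrays to a common distribution, so a shift shared by most genes would not be seen. The number of arrays sets the precision, and p-values measure the spread between these arrays.

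Names came from the platform annotation: of 45101 probe sets 34958 have 1 symbol, 932 several and 9211 none, and 34754 have an Entrez number in the gene table of GRCm38.p6, used for gene order. For each of 18194 genes the brightest probe set on average was taken. limma 3.58.1 (R 4.3.3) fitted 4 group means, with Benjamini-Hochberg adjustment over all genes and a threshold of 0.05, and was tested on simulated data.

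The text names Crbn, up to 15 rises and 15 falls past the threshold without overlap, and for each list up to 4 members past it or the 1 of smallest p, and likewise 5 genes of the interaction. Of 864 list members 804 were measured; lists are given as counts and medians. Defining markers of cell types were named outside this rule, after their values were seen. The members, lists and motifs were chosen with earlier results of these data known. Alternatives covered the choice of probe set, a level filter, the variance prior, the arrays fitted, array weights, normalization, replicate number and each array.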

Additional observations from a re-analysis of the deposited data

Results flagged for a closer look

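For 6 named genes the knockout arrays lay wholly on one side of the wild-type arrays in stimulated cells and wholly on the other in naive cells. Hspa1a, an inducible heat shock gene, differed by 0.457 log2 in stimulated and -0.86 in naive cells (interaction 1.32, limma adjusted p = 0.122), and its naive difference passed (limma adjusted p = 0.0317). Adam24, of the ADAM protease family, differed by -0.319 log2 in stimulated and 0.394 in naive cells (interaction -0.71, limma adjusted p = 0.122). S1pr1 differed by -0.738 log2 in stimulated and 0.214 in naive cells (interaction -0.95, limma adjusted p = 0.191). Sat1 differed by -0.311 log2 in stimulated and 0.226 in naive cells (interaction -0.54, limma adjusted p = 0.21). Polr1b differed by 0.189 log2 in stimulated and -0.18 in naive cells (interaction 0.37, limma adjusted p = 0.284). Eif1a differed by 0.168 log2 in stimulated and -0.311 in naive cells (interaction 0.48, limma adjusted p = 0.281). The interaction of none of these 6 genes passed in limma. The same pattern was present in 514 genes in all (2.83%).

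Probe sets without a single gene symbol were not part of the comparison of genes. When all 45101 probe sets were fitted together, 9 of these 10143 passed in limma (0.0887%), against 32 of all probe sets (0.071%). Higher in stimulated knockout cells were 1447900_x_at (1.12 log2), 1438177_x_at (0.718) and 1449190_a_at (0.528), which all carry the symbols Entpd4b and Entpd4. Higher without any symbol were 1439200_x_at (3.00), 1416666_at (1.25), 1425470_at (0.87) and 1425471_x_at (0.855). Lower were 1431213_a_at (-1.44) and 1455869_at (-1.28). The largest, 1439200_x_at, read 7.74 and 7.78 against 9.84, 11.33 and 11.10 in stimulated arrays, and 6.97 to 7.46 against 9.84 to 11.22 in naive arrays, wild type first.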

How the results depend on the processing

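The 11 differences kept their sign under every alternative that tested the gene, while 8 of the 72 named genes, none of them called, turned sign in at least 1 (Alas2, Csnk1a1, Gspt1, Ighm, Ikzf3, Kcna3, Runx3 and Tyms). The count of 11 (8 higher, 3 lower) became 22 probe sets (14 higher, 8 lower) with every probe set tested. Among these, Gprin3 (0.88 log2), Marcks (0.94), Rell1 (0.77), Tnfrsf10b (0.56), Igf2bp3 (-0.92), Add3 (-0.55), Nnt and Gpr83 are not among the 11 genes. Their brightest probe sets did not pass, so the list of genes depends on the choice of probe set. The count was 7 (4 higher) with genes above the median level, 2 (1 higher, 1 lower) with the compared arrays alone and 3 (1 higher) with array quality weights. Lower genes numbered 5 with the mean of a gene's probe sets and 5 with a variance trend. Leaving out 1 array gave 1 to 28 genes, 1 to 9 higher and 0 to 22 lower. Crbn had a limma adjusted p of 0.0592 with the compared arrays alone (difference -0.90), and ranged from -1.03 to -0.78 when 1 array was left out.

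The 27 naive genes became 55 probe sets, 15 with genes above the median level, 43 with a variance trend, 13 with the compared arrays alone, 1237 with array quality weights, 41 after centring and 10 to 341 when 1 array was left out (341 without naive wild-type replicate 3). The interaction then had 0 to 4 genes. The cause was not tested. With replicate number as a block 12 genes passed after stimulation, 10 of them among the 11, Ccl17 being lost (limma adjusted p = 0.0592); naive cells had 277 and the interaction 1. Same-numbered knockout and wild-type arrays deviated from their group means with correlations of 0.0129 and 0.103 in stimulated cells and of 0.391, 0.0158 and 0.314 in naive cells. Not all exceed 0.1, so the numbers were not taken as pairs in the main fit. Differently numbered naive arrays of the 2 genotypes had correlations between -0.354 and 0.122. Within a genotype, same-numbered naive and stimulated arrays had correlations of 0.27, 0.0871 and 0.216 for knockout and of -0.299 and -0.178 for wild type. The 2 stimulated wild-type arrays deviate from their mean by equal and opposite amounts, so the stimulated correlations cannot decide the pairing. Signal near background limits Cxcl3, Nts, Cxcl2, Dmxl2 and Tyms. For Il6, Hspa1a and 3110070M22Rik, stimulated wild-type replicate 1 also read under 4.57, at 3.69, 4.42 and 4.52.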
